A study of Mus musculus with 54 samples.

Results

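Expression of 33 genes for making nucleotides and the one-carbon units they contain was followed through 15 conditions of mouse peritoneal macrophages. The genes were chosen by symbol, as 13 genes of purine synthesis and reuse, 12 genes of pyrimidine and deoxynucleotide synthesis and 8 genes of serine and one-carbon metabolism. Ensembl identifiers were matched to symbols with a GRCm38 annotation, and all 33 genes were found among the 39179 genes counted. Every one of them had enough reads to be tested in both experiments.

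The study asked how the transcription of M1-like and M2-like macrophages differs and whether siRNA pools against selected transcription factors shift M2-like cells. Adherent peritoneal exudate cells came from C57BL/6 mice 8 to 20 weeks old that had received thioglycolate, with no genetic alteration, and no purification by a surface marker is stated. In the polarization experiment, cells of each of 3 mice were left non-polarized (M0), given LPS at 100 ng/ml together with IFN-γ at 50 ng/ml for 24 h (M1-like), or given IL-4 at 10 ng/ml for 24 h (M2-like). Each of these 9 samples was sequenced in 2 technical runs, which were summed. The reprogramming experiment held 12 groups of 3 libraries. M0, M1-like and M2-like cells were untransfected or mock transfected, and further M2-like cells received a negative control siRNA pool, single pools against Myc, E2f1, Pparg or Stat6, or a combined pool against the transcription factors. RNA of transfected cells was taken 48 h after transfection, and IL-4 was not kept in the medium after transfection. Transfected cells were therefore farther from the stimulus than the 24 h samples. Cells without transfection were sequenced 24 h after polarization by the methods, which do not name the untransfected groups of the reprogramming experiment separately. Whether libraries of 1 number in the reprogramming experiment came from 1 mouse is not stated either, so p-values there measure the spread between libraries.

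Purines are built on a ribose phosphate supplied by the Prps synthetases, through a chain of enzymes from Ppat to Atic that ends in inosine monophosphate, and Impdh, Gmps and Adsl lead on to the guanine and adenine nucleotides. The pyrimidine ring is made by Cad, Dhodh and Umps, and Ctps, ribonucleotide reductase, Tyms, Tk1, Dut and the Nme kinases turn the product into the cytidine and deoxynucleotides used for DNA. Serine made by Phgdh, Psat1 and Psph gives its carbon to folate through the Shmt enzymes, and the Mthfd enzymes pass that carbon to purines and thymidylate. Macrophages treated with LPS are known to rebuild their central metabolism, and MYC and ATF4 are known activators of many of these genes in dividing or nutrient-limited cells.

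Sequences near the gene starts are shown because 2 of the siRNA pools lowered Myc, whose protein binds the E-box, and because the serine genes are known ATF4 targets. RefSeq windows of GRCm38.p6 from 250 bases before to 50 bases after each start were found for 31 of the 33 genes, and Pfas and Dhodh had none. On both strands, the E-box letters CACGTG lay in the windows of 5 matched members (16.1%) and of 8.09% of all 27025 genes with a window. The E2F letters TTTCGCGC, TTTGGCGC, TTTCCCGC or TTTGCCGC lay in 2 members (6.45%, all genes 2.6%), Ppat and Prps2. The ATF4 element TGATGNAA lay in 1 member (3.23%, all genes 4.51%), Prps1. A match says only that the letters are there. Each line gives 30 bases of the strand of the gene, with the matched letters in capitals, which for Ppat are GCGGGAAA, the reverse complement of TTTCCCGC.
Paics, E-box, chr5:76951087-76951116, plus strand: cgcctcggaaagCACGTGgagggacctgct
Atic, E-box, chr1:71557126-71557155, plus strand: gaggaggggcgggacctcggggtCACGTGg
Impdh2, E-box, chr9:108560314-108560343, plus strand: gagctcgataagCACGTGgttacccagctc
Tyms, E-box, chr5:30073669-30073698, minus strand: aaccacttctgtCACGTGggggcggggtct
Nme1, E-box, chr11:93968273-93968302, minus strand: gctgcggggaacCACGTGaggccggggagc
Nme1, E-box of a further start, chr11:93968037-93968066, minus strand: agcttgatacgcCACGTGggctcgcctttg
Ppat, E2F, chr5:76951772-76951801, minus strand: ggagcagaccgcGCGGGAAAaaagggcagt
Ppat, E2F, chr5:76951719-76951748, minus strand: caggatcagaggGCGGGAAAgggaggtgca
Prps1, ATF4 element, chrX:140456421-140456450, plus strand: tggctatctttgTGATGTAAaaagtgcttt

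Summed libraries of the polarization experiment held 39577911 to 59443987 counts per sample, and libraries of the reprogramming experiment held 13421854 to 19704195. All 8 macrophage markers were present in every group. Summed levels of neutrophil markers were 9.96 to 14.9 CPM (counts scaled to a library size of 1e6 reads) in M1-like cells at 24 h against 29.5 to 42.3 CPM in M0 and M2-like cells, with 1 of 6 and 2 of 6 markers at 1 CPM or more. The 4 eosinophil markers summed to 0.27 to 0.817 CPM in M1-like cells against 14.1 to 19.1 CPM in the others, with 0 of 4 and 1 of 4 markers at 1 CPM or more and Prg2 at 0. Mesothelial and fibroblast markers summed to 2.46 to 3.85 CPM against 8.47 to 16.8 CPM at 24 h, with 1 of 5 and 2 of 5 markers at 1 CPM or more. In the reprogramming experiment, those markers summed to 8.32 to 51.0 CPM in M1-like groups against 48.6 to 232 CPM elsewhere, with 2 of 5 and 3 of 5 markers at 1 CPM or more. B cell markers there summed to 0.672 to 2.36 CPM in M1-like groups against 6.01 to 33.2 CPM elsewhere, with 0 of 4 and 4 of 4 markers at 1 CPM or more. Eosinophil markers there summed to 0.61 to 1.7 CPM against 9.47 to 46.1 CPM, with 1 of 4 markers at 1 CPM or more. The part that these other cells play in the differences between M1-like and other cells was not tested. In samples of mixed cells, fewer cells of a type and less RNA per cell cannot be told apart.

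In the reprogramming experiment, the library numbered 3 stood apart in all 8 groups that had received IL-4. Phgdh, Psat1, Mthfd2, Shmt2 and Psph each had their lowest level in that library in 8 of 8 groups. Of all 14172 genes tested there, 180 (1.27%) did so, and of the members it was 5 of 8 one-carbon genes, 0 of 13 purine genes and 0 of 12 pyrimidine genes. Of 20 other genes of the ATF4 response, 11 did so. Results that rest on these libraries are given with and without them, and this pattern was chosen after the values were seen, so it has no test.

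At 24 h, M1-like macrophages had lower levels of most nucleotide synthesis genes than M2-like macrophages in all 3 branches, with a small set going the other way. Of the 33 members, 5 were higher, 27 were lower and 1 did not pass the test (edgeR quasi-likelihood test, Benjamini-Hochberg adjusted p under 0.05 over all 16110 genes tested, n = 3 mice). Among all genes 72.6% passed, 34.6% higher and 38.1% lower, so that passing alone was common, and the median log2 fold change was -0.95 for the members against -0.06 for all genes. Purine genes gave 2 higher and 10 lower, pyrimidine genes 1 higher and 11 lower, and one-carbon genes 2 higher and 6 lower, with medians of -0.88, -0.98 and -1.06. The levels of the 3 mice did not overlap between the groups for 31 members, but the share of all genes was not computed, so this count does not mark the members out. When each compared sample was left out in turn, 29 of the 32 calls stood every time. The call of Hprt was lost without M1-like mouse 2 (0.22, adjusted p = 0.0724) or M2-like mouse 2 or 3 (both 0.20), that of Dhodh without M1-like mouse 3 (-0.27) or M2-like mouse 3 (-0.20), and that of Mthfd2 without M1-like mouse 1 (-0.17) or 2 (-0.21).

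Among purine genes, both Prps synthetases led the decreases at 24 h. Prps2 (ENSMUSG00000025742, chrX:167346322-167382749, GRCm38), a synthetase of the ribose phosphate donor, was at 32.6, 32.1 and 31.0 CPM in the 3 M0 samples, 7.78, 9.53 and 9.34 CPM in M1-like cells and 34.5, 31.2 and 31.1 CPM in M2-like cells. M1-like cells lay below both other groups, 3.62-fold below M2-like cells (log2 fold change -1.86, SE 0.08, adjusted p = 1.21e-09). Its isoenzyme Prps1 was likewise below M2-like cells (-1.78, SE 0.11, adjusted p = 1.60e-08). Unlike Prps2, it was higher in M2-like cells than in M0 cells. Gart, which carries 3 of the steps to inosine monophosphate in 1 protein, fell by 1.57 on the log2 scale (SE 0.08, adjusted p = 2.6e-09). Atic, which performs the last steps of the chain, was at 28.6 to 31.7 CPM in M1-like cells and 71.0 to 73.0 CPM in M2-like cells (-1.23, SE 0.06, adjusted p = 1.71e-09). The remaining called purine genes between the start and the end of the chain or in reuse, Ppat, Pfas, Paics, Adsl, Impdh2 and Aprt, were lower, with log2 fold changes of -0.30 to -1.15.

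Impdh1 and Hprt were the purine genes that went the other way. Impdh1, which makes xanthosine monophosphate on the way to GMP, was at 91.6, 66.7 and 64.5 CPM in M1-like cells against 36.8, 39.8 and 44.4 CPM in M2-like and 49.6 to 57.2 CPM in M0 cells (M1-like against M2-like 0.88, SE 0.12, adjusted p = 4.42e-05). Its groups did not overlap. Gmps, the next enzyme, was at 43.8, 46.0 and 44.1 CPM in M1-like and 56.2, 45.3 and 46.4 CPM in M2-like cells, and the difference did not pass the test (-0.14, SE 0.08, adjusted p = 0.125). Hprt, which reuses hypoxanthine and guanine, was at 107, 112 and 99.1 CPM against 103, 81.5 and 81.9 CPM (0.26, SE 0.09, adjusted p = 0.0198). Its groups overlapped. Reads of Impdh2 may be shared with the copy Impdh2-ps, which is 99.7% identical over 83.2% of the transcript, and reads of Ppat and Paics with each other over the 272 bases where these opposite genes overlap, since the counting is not stated to use strand.

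Pyrimidine and deoxynucleotide genes held the largest decrease of the set. Dut (ENSMUSG00000027203, chr2:125247190-125258608), which removes dUTP and so supplies the precursor of thymidylate, was at 0.432, 0.741 and 0.520 CPM in M1-like cells, 3.32, 3.82 and 3.62 CPM in M0 cells and 6.14, 6.29 and 6.11 CPM in M2-like cells. The 3 groups were fully apart, and M1-like cells were 10.9-fold below M2-like cells (-3.45, SE 0.16, adjusted p = 1.59e-09). Ctps (ENSMUSG00000028633, chr4:120539868-120570276), which makes CTP from UTP, had the same order, with 1.54, 2.40 and 2.06 CPM in M1-like, 5.16, 4.08 and 5.22 CPM in M0 and 9.47, 8.2 and 8.41 CPM in M2-like cells (M1-like against M2-like -2.11, SE 0.16, adjusted p = 1.30e-07). Rrm2, the small subunit of ribonucleotide reductase, was at 0.166 to 0.332 CPM in M1-like and 0.919 to 1.40 CPM in M2-like cells (-2.08, SE 0.29, adjusted p = 3.87e-05), where M1-like samples held 8 to 13 reads of it.

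Umps (ENSMUSG00000022814, chr16:33954782-33967038), the enzyme that completes the pyrimidine ring as UMP, was at 7.46, 10.5 and 9.24 CPM in M1-like cells, 33.8, 36.8 and 36.3 CPM in M0 and 35.8, 36.5 and 35.7 CPM in M2-like cells. M1-like cells were 3.97-fold below M2-like cells (-1.99, SE 0.10, adjusted p = 3.42e-09), while M0 and M2-like cells overlapped. Cad, which carries the opening steps of the ring, fell by 1.68 on the log2 scale, and Dhodh, the step between Cad and Umps, by only 0.29. The exception in the other direction was Tk1, which phosphorylates thymidine taken up by the cell, at 5.21, 5.70 and 5.14 CPM in M1-like, 2.78 to 3.20 CPM in M0 and 2.34 to 2.69 CPM in M2-like cells (M1-like against M2-like 1.10, SE 0.11, adjusted p = 2.22e-06). The remaining 5 genes of the class, Ctps2, Tyms, Rrm1, Nme1 and Nme2, were lower, with log2 fold changes of -0.31 to -1.25. Reads of Nme1 and Nme2 may be shared with the readthrough gene Gm20390, which is identical to Nme2 over 56.7% of its transcript.

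**Figure D1:**
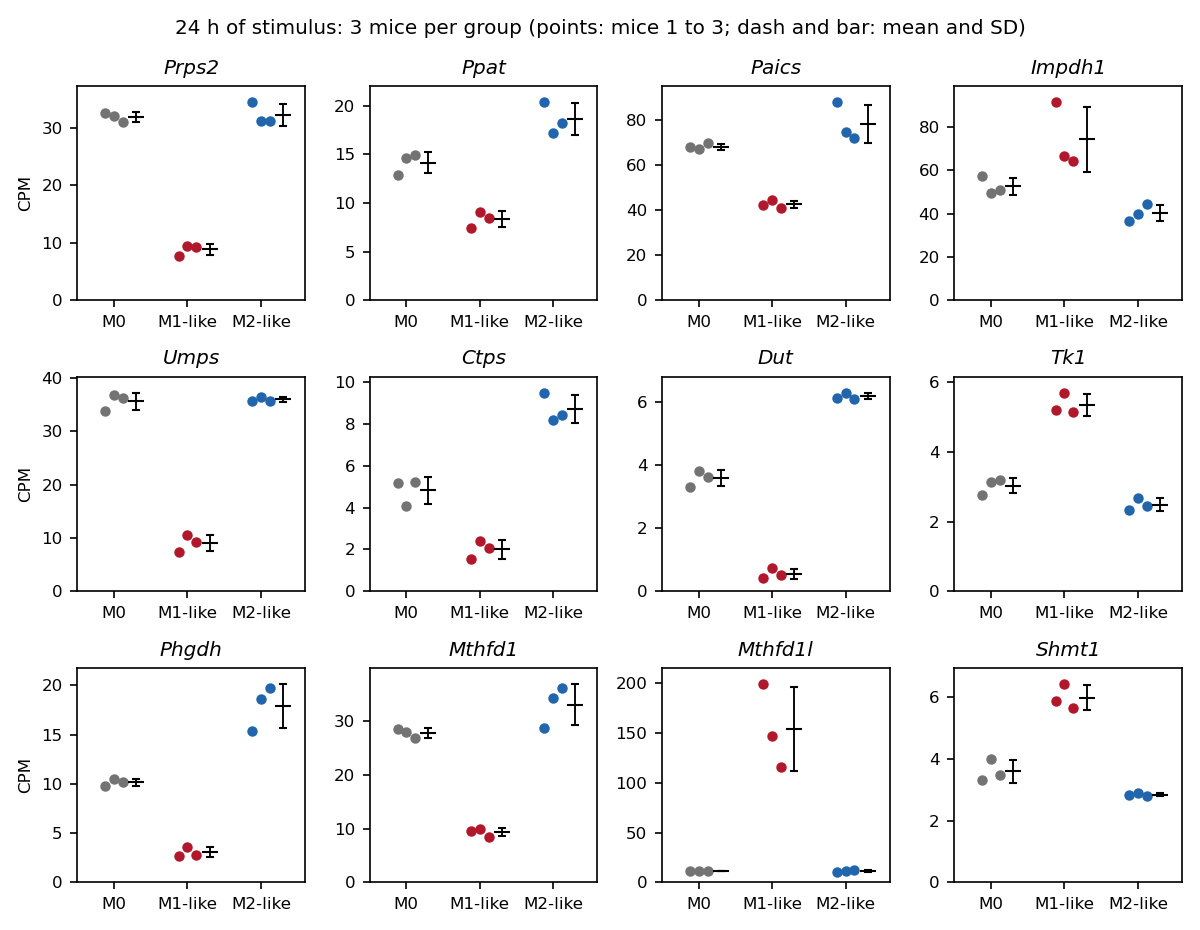
CPM of 12 members in the polarization experiment, 1 panel per gene, with each point a mouse, the dash the mean and the bar the SD of 3 mice in M0, M1-like and M2-like cells. M1-like samples sit lowest for Prps2, Ppat, Paics, Umps, Ctps, Dut, Phgdh and Mthfd1 and highest for Impdh1, Tk1, Mthfd1l and Shmt1.

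One-carbon genes held the largest increase. Mthfd1l (ENSMUSG00000040675, chr10:3973118-4167081), the mitochondrial enzyme that releases formate from folate, was at 199, 147 and 116 CPM in M1-like cells, 11.5, 11.0 and 11.8 CPM in M0 and 10.6, 11.6 and 12 CPM in M2-like cells. M1-like cells were 13.5-fold above M2-like cells (3.75, SE 0.17, adjusted p = 9.98e-10). M0 and M2-like cells overlapped, and the 3 M1-like mice differed more among themselves than those of the other groups did. Its cytosolic counterpart Mthfd1, which returns formate to folate for purine synthesis, was at 9.51, 9.99 and 8.49 CPM in M1-like and 28.7, 34.3 and 36.1 CPM in M2-like cells (-1.83, SE 0.09, adjusted p = 4.31e-09). The hydroxymethyltransferases also went opposite ways, here with the cytosolic enzyme higher in M1-like cells. Mitochondrial Shmt2 was at 9.43 to 11.8 CPM in M1-like and 22.7 to 27.0 CPM in M2-like cells (-1.23, SE 0.09, adjusted p = 1.47e-07), and cytosolic Shmt1 was at 5.66 to 6.44 CPM against 2.81 to 2.90 CPM (1.07, SE 0.11, adjusted p = 2.42e-06).

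Of the serine genes, Phgdh (ENSMUSG00000053398, chr3:98313170-98339990), which draws 3-phosphoglycerate into serine synthesis, was at 2.70, 3.63 and 2.83 CPM in M1-like, 9.80, 10.5 and 10.2 CPM in M0 and 15.4, 18.6 and 19.7 CPM in M2-like cells. The groups were apart, M1-like cells 5.87-fold below M2-like cells (-2.55, SE 0.13, adjusted p = 2.67e-09). Psat1, the next enzyme, was at 102, 101 and 111 CPM in M2-like cells against 50.2, 52.0 and 60.8 CPM in M1-like and 48.6, 42.1 and 51.6 CPM in M0 cells. M2-like cells were above both other groups for it, and M1-like and M0 cells overlapped (0.20, adjusted p = 0.0645, with the mouse as a block 0.20, adjusted p = 0.0226). Psph, which completes serine, fell by 1.18 on the log2 scale between M2-like and M1-like cells. Mthfd2, the mitochondrial dehydrogenase, differed little (-0.23, adjusted p = 0.0149). Reads of Phgdh may be shared with pseudogene copies, of which Gm7901 is 98.7% identical over 84.4% of the transcript.

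Set against M0 cells, which enter both remaining comparisons at 24 h, M1-like cells had mostly lower and M2-like cells mostly higher or uncalled members. In M1-like against M0 cells, 6 members were higher, 23 lower and 4 did not pass (median -0.74), where 72.9% of all genes passed, 35.4% higher and 37.5% lower. The 6 higher members were Mthfd1l (3.75), Tk1 (0.81), Shmt1 (0.73), Impdh1 (0.50), Gmps (0.31) and Mthfd2 (0.24). Adsl (-0.08, adjusted p = 0.347), Hprt (0.08, 0.413), Dhodh (-0.18, 0.112) and Psat1 did not pass. The calls of Rrm1 (-0.20 without M0 mouse 1 and -0.21 without M1-like mouse 3) and Nme2 (-0.25 to -0.29) were lost without some sample. In M2-like against M0 cells, 15 members were higher, 3 lower and 15 did not pass (median 0.20), where 27.9% of all genes passed, 13.5% higher and 14.4% lower. The higher members were 7 of 13 purine, 4 of 12 pyrimidine and 4 of 8 one-carbon genes.

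Increases in M2-like over M0 cells reached 2.21-fold. The largest were those of Psat1 (log2 fold change 1.14, SE 0.09, adjusted p = 4.40e-06), Ctps (0.85, SE 0.14, adjusted p = 0.00111), Phgdh (0.81, SE 0.11, adjusted p = 0.000286), Dut (0.78, SE 0.13, adjusted p = 0.000842) and Prps1 (0.75, SE 0.10, adjusted p = 0.000214). Among the rest, Mthfd2 rose by 0.47, Gmps by 0.45, Psph by 0.44, Ppat and Nme2 by 0.40 and Nme1 by 0.39. Members whose level was lower in M2-like than in M0 cells were Aprt (-0.47, adjusted p = 0.0404), Impdh1 (-0.38, adjusted p = 0.0393) and Shmt1 (-0.34, adjusted p = 0.0391). Prps2 (0.02), Umps (0.01), Cad (0.09), Shmt2 (0.08) and Mthfd1l (-0.00) did not pass the test. Of the 18 calls, 11 stood whichever compared sample was left out, and without M0 mouse 2 the count was 11. Those of Gart, Adsl, Impdh1, Impdh2, Aprt, Nme2 and Shmt1 were lost in some case, that of Shmt1 whichever sample was left out (-0.26 to -0.39), and Impdh2 also with the mouse as a block (0.23, adjusted p = 0.0647).

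Levels per kilobase of exon allow genes to be set side by side. In M2-like cells at 24 h the highest members were Hprt at 68.9, Aprt at 55.4 and Mthfd2 at 35.1 CPM per kilobase, and the lowest were Rrm2 at 0.398 and Tyms at 0.377. In M1-like cells Hprt again led with 82.4 CPM per kilobase, while Mthfd1l moved from rank 24 in M2-like cells (2.57 CPM per kilobase) to rank 2 (34.7). Of the summed per-kilobase level of Mthfd1l and Mthfd1, Mthfd1l made up 29.2% ± 1.27 (SD, n = 3) in M0, 25.8% ± 1.13 in M2-like and 94.1% ± 1.20 in M1-like cells. The share of Shmt1 in the Shmt pair was 10.8% in M0, 8.34% in M2-like and 31.1% in M1-like cells, and that of Impdh1 in the Impdh pair 81.8%, 74.6% and 89.2%. Ctps made up 14.9% of the Ctps pair in M2-like, 8.17% in M0 and 5.78% in M1-like cells. The log2 ratio of M1-like and M2-like cells differed by 5.54 for Mthfd1l over Mthfd1, 2.31 for Shmt1 over Shmt2, 1.51 for Impdh1 over Impdh2 and -1.52 for Ctps over Ctps2, each with an exact two-sided permutation p = 0.1, the smallest that 3 against 3 samples allow. Prps1 over Prps2 differed by 0.09 (exact permutation p = 0.6).

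Other genes of these pathways went both ways at 24 h, with 72.0% to 90.0% of each list called where 72.6% of all genes were, and the replication and folate lists (72.0% and 72.7%) at that share. Of 26 tested genes of purine salvage and breakdown, M1-like cells had 10 higher and 12 lower than M2-like cells (median -0.16), led by Ak4, an adenylate kinase, at 215 against 3.98 CPM (5.75), Gmpr, which turns GMP back to IMP (-5.06), Samhd1, which degrades deoxynucleotides, at 2533 against 340 CPM (2.90), and Ampd3, an AMP deaminase (2.63). Of 20 genes of pyrimidine salvage and breakdown, 8 were higher and 10 lower (median -0.31). Upp1, which splits uridine, was at 339 ± 42.2 CPM against 0.189 ± 0.0377 CPM (SD, n = 3), and Cmpk2, a mitochondrial nucleotide kinase, at 618 against 7.72 CPM (6.33). Of 22 genes of folate, glycine and methionine metabolism, 4 were higher and 12 lower (median -0.20), with Gldc, which cleaves glycine, lower (-3.78). Of 19 genes of the ATF4 response, 10 were higher and 6 lower, and of 25 genes of DNA replication and division, 4 were higher and 14 lower (median -0.51). Ccne1 led the latter upwards (3.68), and Top2a (-2.79), Mcm2 (-2.06) and Gins1 (-1.82) downwards.

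In the reprogramming experiment, fewer members were called between M1-like and M2-like cells, and the purine genes divided. In mock transfected cells, 7 members were higher, 7 lower and 19 did not pass (median -0.07), where 60.7% of all 14172 genes passed, 30.9% higher and 29.8% lower. Purine genes gave 6 higher and 3 lower, pyrimidine genes 1 and 3, and one-carbon genes 0 and 1. In untransfected cells, 6 were higher, 10 lower and 17 did not pass, where 61.5% of all genes passed, 31.3% higher and 30.2% lower. The M1-like to M2-like difference was also tested for a change between mock and untransfected cells. That test called 0 of 33 members by edgeR, with 0 at an unadjusted p under 0.05 and 0 by DESeq2, where 1.13% of all genes passed. Summed markers of the M1-like state were 471 to 901 CPM in M1-like cells here against 13432 to 16920 CPM at 24 h. Markers of the M2-like state were 1099 to 1764 CPM in mock and untransfected M2-like cells against 5600 to 7130 CPM at 24 h. The experiments differ in read length and library type, and mock cells also in time, so that these cannot be told apart. The time of the untransfected groups is not named separately. Their M1-like cells held 704 to 901 CPM of M1-like state markers, and mock M1-like cells 471 to 611 CPM. Between these 2 groups 0 of 14172 genes were called. What sets the untransfected groups apart from the 24 h samples was not tested.

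Umps was lower in M1-like cells here as well. It was at 23.0, 22.5 and 24.2 CPM in mock M1-like cells against 39.7, 36 and 42.5 CPM in mock M2-like cells (-0.76, SE 0.08, adjusted p = 2.42e-10), and at 20.5, 22.4 and 23.5 CPM against 45.0, 39.4 and 39.5 CPM in untransfected cells (-0.90, SE 0.08, adjusted p = 5.68e-12). The groups did not overlap in either case. Atic was also lower, at 47.2 to 51.8 CPM against 70.6 to 79.2 CPM in mock cells (-0.59, SE 0.07, adjusted p = 6.95e-09), as was Nme1, a nucleoside diphosphate kinase, at 12.1 to 16.9 CPM against 23.4 to 25.2 CPM (-0.81, SE 0.13, adjusted p = 4.88e-06). Impdh1 was higher, at 57.1, 55.8 and 59.8 CPM against 34.4, 34.8 and 39.0 CPM (0.67, SE 0.08, adjusted p = 8.15e-09), which was its direction at 24 h.

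Several genes that stood far apart at 24 h did not pass in mock cells. In mock cells, Mthfd1l was at 14.6, 14.3 and 14.3 CPM in M1-like and 13.8, 14.9 and 11.7 CPM in M2-like cells (0.10, adjusted p = 0.579). Dut was at 3.44 to 4.24 CPM against 4.91 to 5.37 CPM (-0.37, adjusted p = 0.113). Values for Mthfd1 (-0.14), Cad (-0.00), Shmt2 (-0.07) and Prps2 (0.25, adjusted p = 0.113) did not pass either. In untransfected cells Mthfd1l was called (0.37, adjusted p = 0.0303), a call lost in 5 of the 6 cases with a library left out (0.23 to 0.37). The direction was opposite to 24 h for Dhodh, at 15.3, 17.5 and 16.6 CPM in mock M1-like and 8.84, 9.68 and 12.3 CPM in mock M2-like cells (0.68, SE 0.13, adjusted p = 4.68e-05).

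Opposite to 24 h as well were Prps1 (0.38, SE 0.14, adjusted p = 0.0190), Pfas (0.28, adjusted p = 0.0281), Adsl (0.25, adjusted p = 0.0487) and Impdh2 (1.06, SE 0.37, adjusted p = 0.0155). Impdh2 rested on few reads, with 8 to 14 in mock M2-like and 21 to 38 in mock M1-like libraries. Also called were Gmps (0.23), Paics (-0.28), Gart (-0.24), Rrm2 (-0.98, SE 0.35, adjusted p = 0.0178) and Phgdh (-1.87, SE 0.65, adjusted p = 0.0133). In all, 6 of the 14 calls, those of Paics, Atic, Impdh1, Dhodh, Umps and Nme1, stood whichever compared library was left out. Without mock M2-like library 1 the count was 9, and Prps1 (0.31), Pfas (0.23), Adsl (0.20), Impdh2 (0.84) and Phgdh (-1.33, adjusted p = 0.126) were not called. Gmps was lost without mock M1-like library 1 (0.15), Gart without that library (-0.21) or mock M2-like library 3 (-0.18), and Rrm2 without library 2 of either group (-0.65 and -0.58). In untransfected cells 9 of the 16 calls stood in every case, those of Prps1, Gart, Paics, Atic, Impdh1, Dhodh, Umps, Ctps2 and Nme1.

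**Figure D2:**
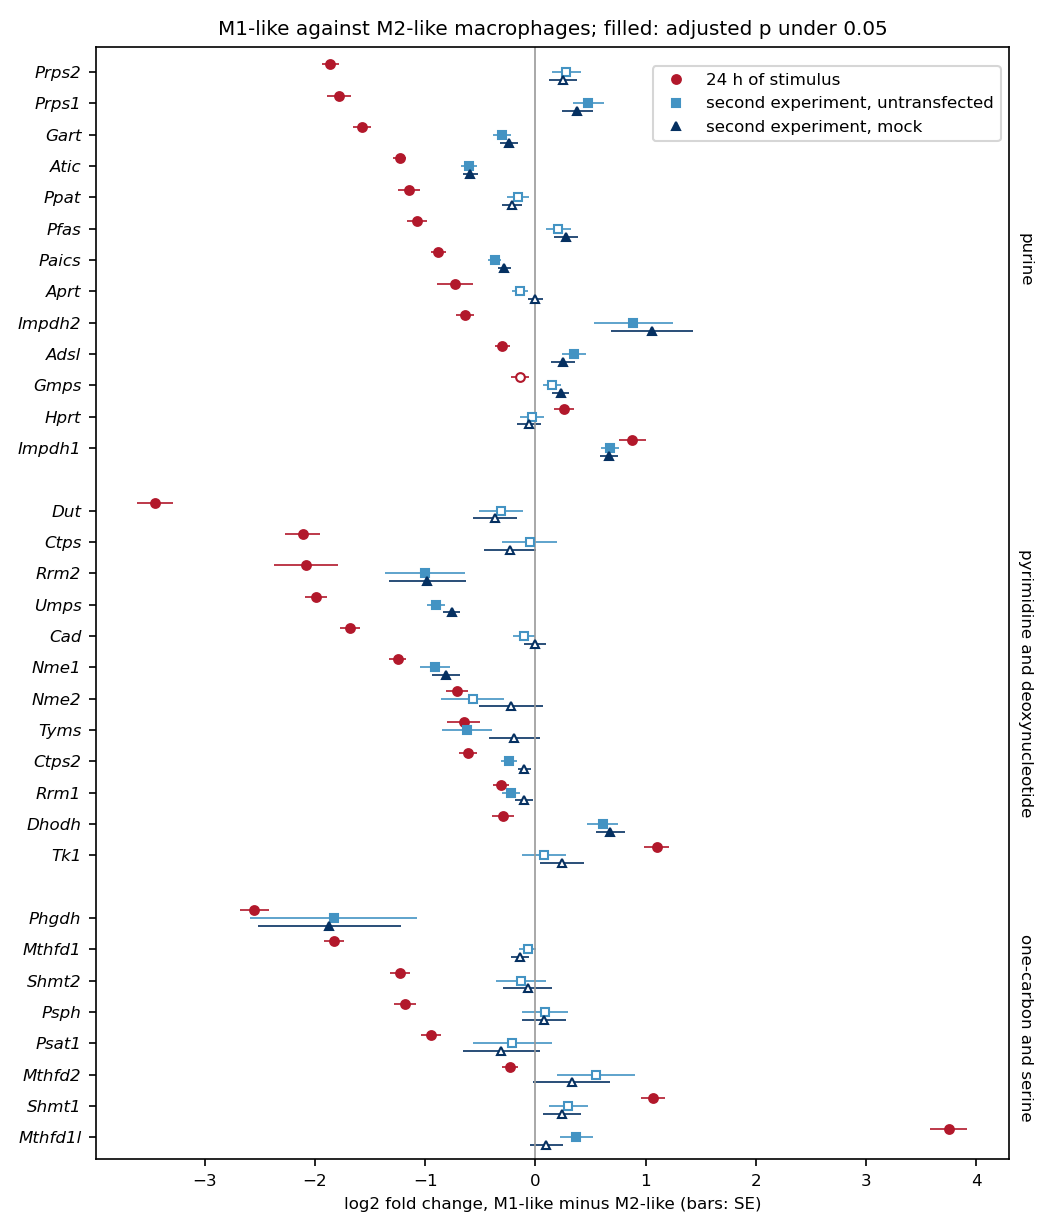
M1-like to M2-like log2 fold changes of the 33 members with their SE as bars, with red circles for the 24 h samples and squares and triangles for untransfected and mock transfected cells of the reprogramming experiment. Filled symbols passed the test, and most symbols lie nearer to 0 in the reprogramming experiment, with Mthfd1l going from 3.75 to 0.10 in mock cells and Umps from -1.99 to -0.76.

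Against M0 cells, few members were called in the reprogramming experiment. Mock M1-like against mock M0 cells gave 4 higher, 7 lower and 22 not passing, where 60.4% of all genes passed, 30.3% higher and 30.0% lower. Mthfd2 (1.19, adjusted p = 0.0048), Psat1 (0.88), Dhodh (0.65) and Impdh1 (0.32) were higher, the call of Psat1 being lost whichever library was left out (0.84 to 0.98), and Nme2 (-0.90), Umps (-0.71), Nme1 (-0.56) and Atic (-0.47) led the lower ones. Gart was lost without mock M0 library 2 (-0.13) or mock M1-like library 1 (-0.20), and Ctps2 without library 1 of either group (-0.12 and -0.17). Untransfected M1-like against M0 cells gave 3 higher and 11 lower, where 57.7% of all genes passed, 29.0% higher and 28.7% lower. Mock M2-like against mock M0 cells gave 1 higher and 2 lower, where 3.83% of all genes passed, 2.19% higher and 1.64% lower. Those were Paics (0.21), Impdh1 (-0.35) and Cad (-0.41), and none of these 3 calls stood in every case with a compared library left out, the count being 0 without mock M2-like library 1 and 1 without mock M2-like library 2 or mock M0 library 2. Untransfected M2-like against M0 cells gave 0 higher and 4 lower (Impdh1 -0.63, Cad -0.54, Prps1 -0.46 and Adsl -0.38), where 19.9% of all genes passed, 10.7% higher and 9.19% lower, and Impdh1 and Cad stood in every case.

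Mock transfected M0 cells had lower levels of some members than untransfected M0 cells, 0 higher and 5 lower, where 20.4% of all genes passed, 11.7% higher and 8.66% lower. Mock cells were taken 48 h after transfection, and cells without transfection 24 h after polarization by the methods. The methods do not name these untransfected groups separately. Any difference in time therefore cannot be told apart from transfection here. Psat1 was at 42.4, 40.8 and 46.6 CPM in untransfected and 19.1, 23.0 and 19.3 CPM in mock M0 cells, with no overlap (-1.08, adjusted p = 0.0365). Summed neutrophil markers were 19.1 to 34.7 CPM in mock against 39.1 to 48.1 CPM in untransfected M0 cells (2 of 6 markers at 1 CPM or more, Ly6g at 0), and eosinophil markers 9.47 to 12.5 CPM against 16.1 to 24.3 CPM (1 of 4), and their part was not tested. Impdh1 (-0.40), Hprt (-0.38), Aprt (-0.30) and Paics (-0.23) were also lower, and the call of Psat1 was lost whichever library was left out (-1.02 to -1.17). Without untransfected library 2, Paics and Hprt were lost as well and the count was 2. Phgdh was at 1.68 to 2.46 CPM against 0.322 to 0.784 CPM (-1.97, adjusted p = 0.056) and did not pass. In M1-like and in M2-like cells, 0 of 33 members were called between mock and untransfected cells by edgeR, with 0 at an unadjusted p under 0.05 and 0 by DESeq2, where 0.00% and 1.77% of all genes passed, in M2-like cells 1.67% higher and 0.0988% lower.

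The serine genes of IL-4-treated cells depended on the library numbered 3. Phgdh was at 4.67, 2.87 and 1.12 CPM in libraries 1, 2 and 3 of mock M2-like cells and at 6.50, 6.00 and 2.92 CPM with the negative pool. Psat1 was at 59.9, 56.1 and 24.7 CPM in the mock group, and Mthfd2 at 104, 89.0 and 41.5 CPM. Over the 8 IL-4 groups, library 3 held a median of 31.6% (range 18.4% to 46.7%) of the mean of the other two libraries for Phgdh, 45.3% for Psat1, 47.8% for Mthfd2, 70.3% for Shmt2 and 73.3% for Psph.

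In the 4 M0 and M1-like groups the same share was 62.5% to 206% for Phgdh, lowest in library 3 in 1 of them, 91.7% to 126% for Psat1 and 97.7% to 118% for Mthfd2. Asns, an ATF4 target that makes asparagine, had 22.4% to 48.8% in the IL-4 groups and 94.9% to 150% in the M0 and M1-like groups. Without library 3 of the IL-4 groups, the log2 fold change of mock M2-like against mock M0 cells was 2.79 for Phgdh, 1.5 for Psat1 and 1.16 for Mthfd2, against 2.41 (adjusted p = 0.05), 1.19 (0.062) and 0.86 (0.19) with it. That of Psat1 in M1-like against M2-like cells was then -0.61 in mock cells, against -0.31 with it. The library was singled out by the low levels of these genes, so that leaving it out raises them in IL-4-treated cells by construction, and their values without it have no test. Paics was no longer called between mock M2-like and mock M0 cells. In the mock M1-like to M2-like comparison, Adsl and Gart were lost and Ppat was gained (-0.26, adjusted p = 0.0328).

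**Figure D3:**
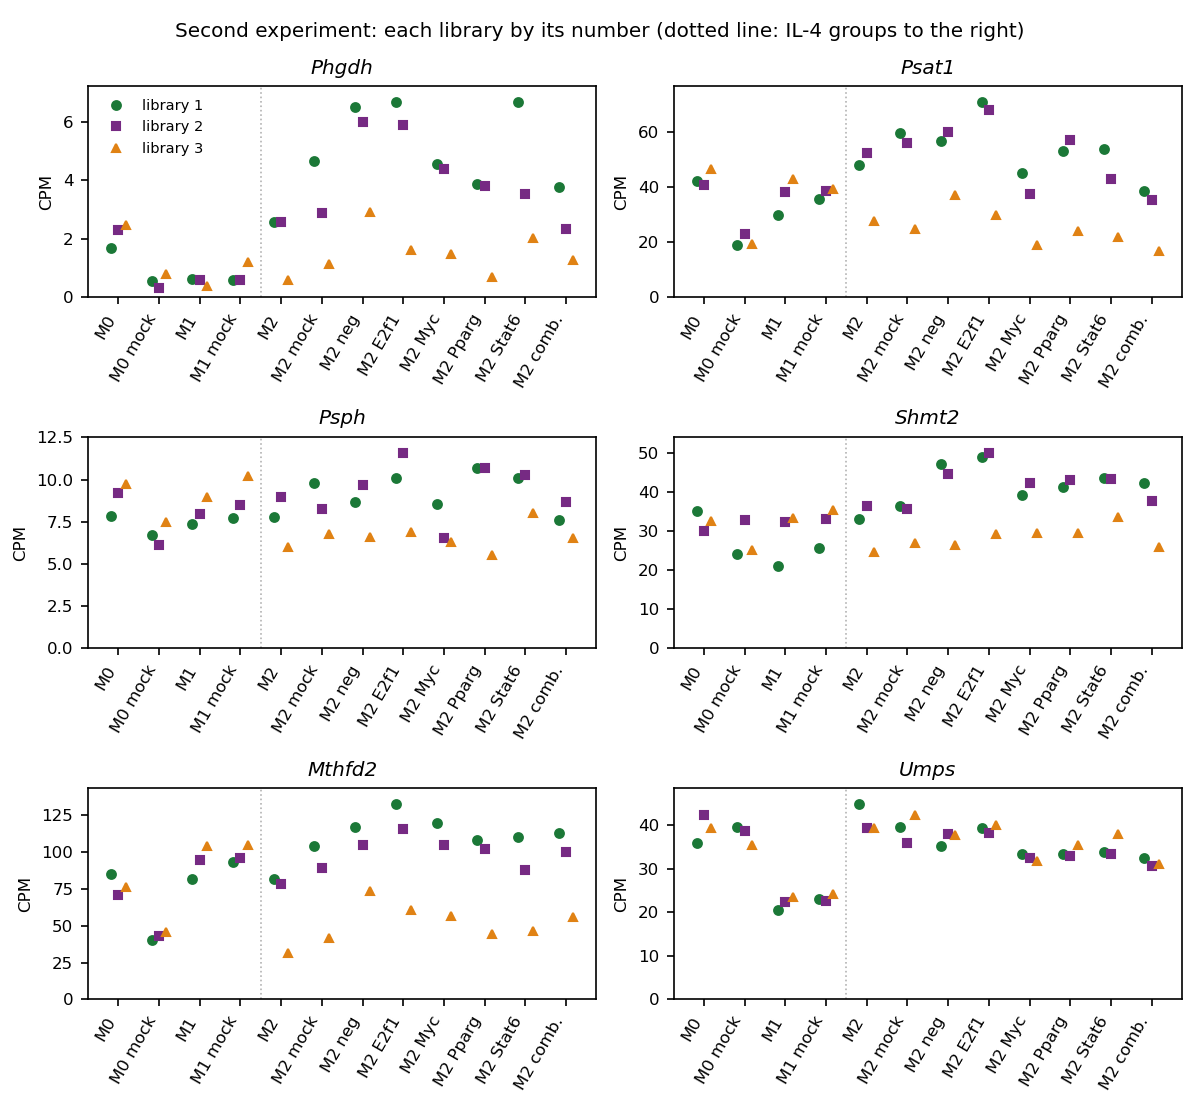
CPM of Phgdh, Psat1, Psph, Shmt2, Mthfd2 and Umps in the 12 groups of the reprogramming experiment, with a symbol for each library number and the IL-4-treated groups to the right of the dotted line. Library 3 is the lowest of its group in 8 of 8 IL-4 groups for all of these genes except Umps.

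The siRNA pools lowered their targets to different extents. Myc was at 21, 23.6 and 20.4 CPM in mock M2-like cells, 19.6, 22.3 and 18.5 CPM with the negative pool, 8.24, 8.90 and 5.83 CPM with the Myc pool and 8.58, 8.04 and 7.30 CPM with the combined pool. The Myc and combined pools thus left 35.4% ± 7.45 (SD, n = 3) and 36.8% of the mock level. Single pools left 18.9% of E2f1, 24.1% of Pparg and 27.9% of Stat6, and the combined pool 45.2%, 31.0% and 55.1%. Of the negative pool level, single pools left 25.2%, 21.9% and 27.3%, and the combined pool 60.4%, 28.3% and 53.9%. E2f1 was lower with the negative pool than in mock cells (-0.42, edgeR adjusted p = 0.00715). Pparg was also lower than with the negative pool under the Myc (-0.62, edgeR adjusted p = 6.82e-07), Stat6 (-0.35, 0.016) and E2f1 pools (-0.33, 0.0366). For comparison, Myc was at 0.513, 0.664 and 0.728 CPM in M1-like, 8.93 to 9.52 CPM in M0 and 18.6 to 20 CPM in M2-like cells at 24 h.

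Both pools with Myc siRNAs lowered a subset of the members in M2-like cells. Against the negative pool, the Myc pool gave 3 higher, 9 lower and 21 not passing (median -0.18), where 29.6% of all genes passed, 13.9% higher and 15.6% lower (median 0.00). Against the mock group, which is a separate control, it gave 1 higher, 9 lower and 23 not passing, where 38.7% of all genes passed, 19.8% higher and 18.9% lower. The combined pool gave 1 higher, 8 lower and 24 not passing against the negative pool, where 26.5% of all genes passed, 12.5% higher and 13.9% lower, and 1 higher, 11 lower and 21 not passing against mock, where 37.1% of all genes passed, 19.0% higher and 18.1% lower. The shares of members that passed in either direction lie near those of all genes, and the comparisons share their control libraries. Summed neutrophil markers were 53.0 to 63.4 CPM in the pools with Myc siRNAs against 23.6 to 46.4 CPM in mock and negative pool libraries, with 2 or 3 of 6 markers at 1 CPM or more and Ly6g at 0. They were 88.9 to 114 CPM with the Pparg pool, the highest of the 12 groups, 41.8 to 60.7 CPM with the Stat6 pool and 37.4 to 46.6 CPM with the E2f1 pool. Markers of the M2-like state were 684 to 1042 CPM in the pools with Myc siRNAs against 1099 to 1753 CPM in mock and negative pool libraries, and the part of either in these results was not tested. No member was called between the combined and the Myc pool (0 of 33 by edgeR, with 1 at an unadjusted p under 0.05 and 0 by DESeq2, where 0.0494% of all genes passed).

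Prps2 fell with both pools against both controls. It was at 23.8, 21.5 and 18 CPM in mock M2-like cells, 18.7, 17.9 and 20 CPM with the negative pool, 11.2, 9.86 and 11.6 CPM with the Myc pool and 13.0, 12.3 and 11.9 CPM with the combined pool. All 6 libraries with Myc siRNAs lay below all 6 control libraries. The Myc pool fell 1.74-fold below the negative pool (-0.80, SE 0.14, adjusted p = 6.97e-05), and the combined pool by 0.61 on the log2 scale (SE 0.14, adjusted p = 0.00161). Prps1 was not called in either comparison, and its share of the Prps pair was 62.9% with the Myc pool, 58.9% with the combined pool, 50.2% with the negative pool and 45.3% in mock cells (Myc against negative pool, log2 ratio difference 0.75, exact two-sided permutation p = 0.1, the smallest possible).

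Mthfd1l, which had been highest in M1-like cells at 24 h, moved down under the Myc siRNAs. It was at 13.8, 14.9 and 11.7 CPM in mock cells, 13.5, 11.5 and 11.0 CPM with the negative pool, 7.94, 8.34 and 6.76 CPM with the Myc pool and 8.07, 7.72 and 5.84 CPM with the combined pool, with no overlap between pools with Myc siRNAs and controls. Against the negative pool, the Myc pool differed by -0.64 (SE 0.15, adjusted p = 0.00186) and the combined pool by -0.73 (SE 0.16, adjusted p = 0.000602). Its share of the Mthfd1l and Mthfd1 pair was 19.2% and 18.2% with these pools against 28.0% with the negative pool.

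Among the other purine genes, Paics, which carries 2 steps of the chain and has an E-box printed above, was at 78.1, 70.8 and 74.1 CPM with the negative pool, 58.8, 58.7 and 56.8 CPM with the Myc pool and 56.3, 59.3 and 57.7 CPM with the combined pool (-0.36, SE 0.06, adjusted p = 2.58e-05 for Myc). Hprt was at 73.3 to 77.3 CPM with the negative pool and 46.4, 62.8 and 56.4 CPM with the Myc pool (-0.44, SE 0.11, adjusted p = 0.00258). Atic, which also has an E-box, fell against mock with both pools (-0.36 and -0.33) but not against the negative pool, which was itself below mock (-0.23, adjusted p = 0.0227). Of the 5 members with an E-box in the window, Paics passed against the negative pool with either pool, and Atic, Impdh2, Tyms and Nme1 did not. Impdh2 had few reads in the reprogramming experiment, which limits what its test can show. With the replicate number as a block in the 8 IL-4 groups alone, Nme1 passed with the Myc pool (-0.27, adjusted p = 0.0159). Gart went the other way, at 45.3, 47.9 and 47.4 CPM with the negative pool, 52.8, 55.0 and 56.9 CPM with the Myc pool and 52.3, 58.4 and 62.0 CPM in mock cells. It rose against the negative pool (0.23, adjusted p = 0.0326), and the Myc pool overlapped the mock group.

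Of the pyrimidine genes, Rrm1, the large subunit of ribonucleotide reductase, was at 29.8, 33.4 and 36.1 CPM with the negative pool, 29.6, 32.3 and 29.8 CPM in mock cells, 23.4, 23.0 and 21.1 CPM with the Myc pool and 24.3, 24.3 and 25.4 CPM with the combined pool. The pools did not overlap with the controls (Myc against negative pool -0.55, SE 0.08, adjusted p = 7.11e-06). Rrm2 was also lower (-0.93, SE 0.34, adjusted p = 0.0356), at 1.80 to 2.03 CPM against 3.37 to 3.91 CPM. Ctps2 was at 54.9, 54.5 and 55.4 CPM with the Myc pool against 62.8, 63.0 and 70.2 CPM with the negative pool (-0.25, adjusted p = 0.00381). Dhodh (0.40, adjusted p = 0.0239) and Cad (0.26, adjusted p = 0.0434) were higher than with the negative pool, and Dhodh at 10.6 to 12.7 CPM overlapped the 7.21 to 11.1 CPM of that pool. Umps fell against mock by 0.28 with the Myc pool and by 0.33 with the combined pool.

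Several of these calls rested on 1 library. For the Myc pool against the negative pool, 6 of 12 calls stood in every case, those of Prps2, Paics, Hprt, Ctps2, Rrm1 and Mthfd1l, and the count was 7 without negative pool library 3. Rrm2 was lost whichever library was left out (-0.88 to -0.99), Dhodh was at 0.26 and Gmps at -0.20 without negative pool library 3, and Cad and Aprt were at 0.20 and -0.19 without negative pool library 1. For the combined pool against the negative pool it was 5 of 9, those of Prps2, Paics, Aprt, Rrm1 and Mthfd1l. Against mock, 9 of 10 and 9 of 12 calls stood, and the 9 were Prps2, Paics, Atic, Impdh1, Hprt, Umps, Ctps2, Rrm1 and Mthfd1l for both pools.

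Without library 3 of all IL-4 groups, which Psat1 itself helped to single out, the log2 fold changes of Psat1 were -0.5 (Myc against negative pool), -0.48 (Myc against mock), -0.66 (combined against negative pool) and -0.65 (combined against mock), given with no test. In the same setting, Myc against the negative pool gave 7 calls (all genes 16.2%), of which that of Psat1 has no test. It lost Ctps2, Gmps, Cad, Dhodh, Rrm2 and Gart. Impdh1, Impdh2 and Umps were lost in Myc against mock, and Ctps2, Dhodh and Umps in the combined against the negative pool. With the replicate number as a block, the combined pool against the negative pool was called also for Psat1 (-0.79, adjusted p = 0.0164), Phgdh (-1.09, 0.0209) and Gart (0.22, 0.0271), the combined pool against mock also for Psat1 (-0.63, 0.0488) and Impdh2 (0.94, 0.0459), and the Myc against the negative pool also for Pfas (0.25, 0.0491).

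**Figure D4:**
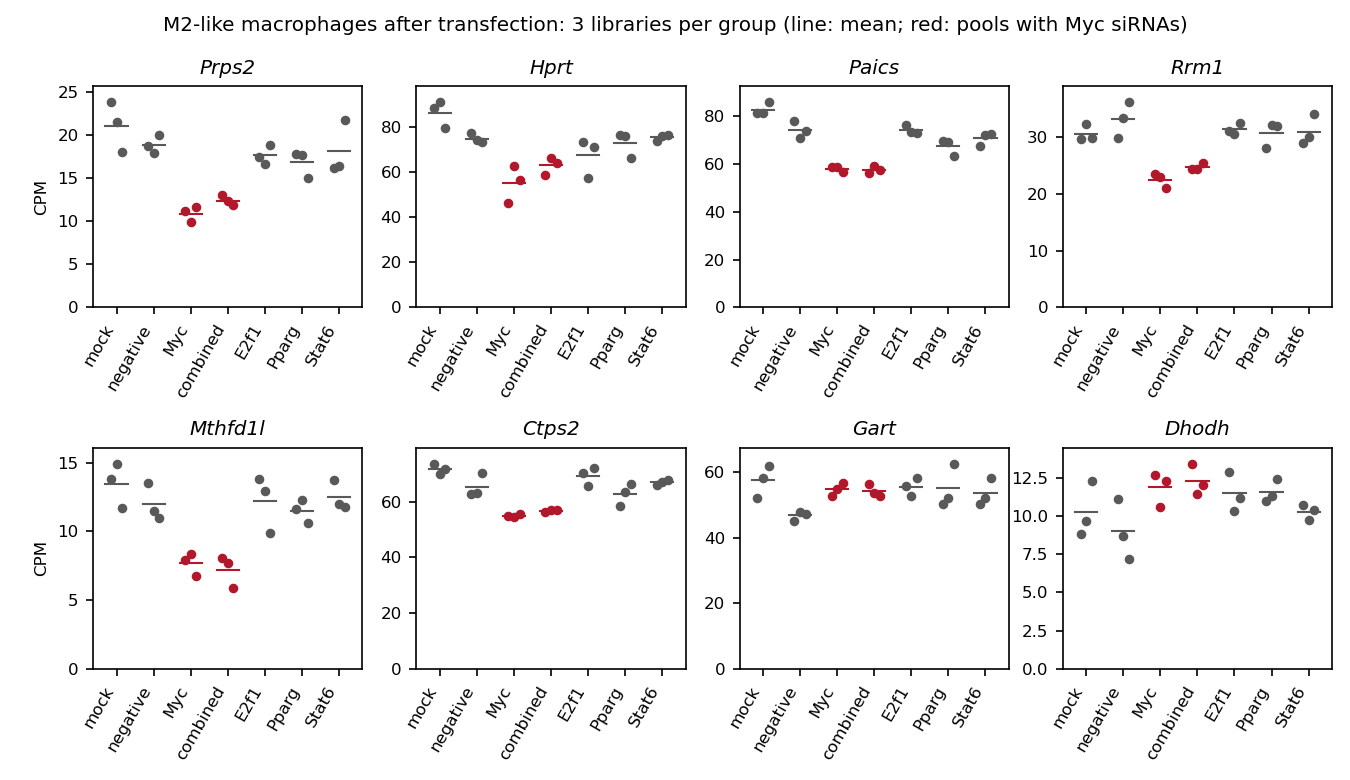
CPM of 8 members in M2-like macrophages after mock transfection, the negative pool and the 5 targeted pools (points, libraries; lines, means of 3; red, pools with Myc siRNAs). The red points lie below all mock and negative pool points for Prps2, Hprt, Paics, Rrm1, Mthfd1l and Ctps2.

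The single pools against the other factors called few members. Against the negative pool, the E2f1 pool gave 0 of 33 by edgeR, with 4 at an unadjusted p under 0.05 and 0 by DESeq2, where 0.910% of all genes passed (0.261% higher, 0.649% lower), and with the replicate number as a block Aprt was called (-0.23, adjusted p = 0.044). The Stat6 pool gave 0 of 33 by edgeR, with 5 at an unadjusted p under 0.05 and 0 by DESeq2, where 1.51% of all genes passed (0.466% higher, 1.04% lower). The Pparg pool gave Aprt (-0.24, adjusted p = 0.0484) and Cad (0.32, adjusted p = 0.0491), where 5.74% of all genes passed, 2.71% higher and 3.03% lower. Against mock, the counts were 1 for E2f1 (Hprt -0.36), 4 for Pparg (Paics -0.30, Umps -0.22, Ctps2 -0.19 and Nme2 0.78) and 3 for Stat6 (Ppat -0.38, Paics -0.22 and Tyms 0.76), where 11.6%, 17.2% and 11.5% of all genes passed (6.31%, 9.59% and 6.13% higher, 5.32%, 7.63% and 5.33% lower). The negative pool itself differed from mock in 3 members, Gart (-0.30), Atic (-0.23) and Aprt (0.25), where 11.7% of all genes passed, 6.67% higher and 5.03% lower. Of these 13 calls, that of Paics with the Pparg pool alone stood in every case with a compared library left out. The count was 0 for the negative pool against mock without mock library 3 or negative pool library 1, 0 for E2f1 against mock without mock library 1 or E2f1 library 2, and 1 for Stat6 against mock without mock library 1 or 3. It was 1 for Pparg against mock without mock library 1 or 3 or Pparg library 2. For Pparg against the negative pool it was 0 without any 1 Pparg library or negative pool library 3 and 1 without negative pool library 1 or 2. Without library 3 of the IL-4 groups, 0 members were called by edgeR for the negative pool against mock, for both Pparg comparisons and for Stat6 against mock. Of all genes, 5.11% then passed for the negative pool against mock and 5.06% for Stat6 against mock. For Pparg it was 10.3% against mock and 1.23% against the negative pool.

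The combined pool was also set against the M1-like cells it was meant to approach. Against mock M1-like cells, 4 members were higher, 11 lower and 18 did not pass (median -0.11), where 52.9% of all genes passed, 27.2% higher and 25.6% lower. Impdh1 was at 29.2, 26.0 and 25.2 CPM against 57.1, 55.8 and 59.8 CPM (-1.10, adjusted p = 3.28e-13), while mock M2-like cells were at 34.4 to 39.0 CPM, so that its level lay farther from M1-like cells than that of mock M2-like cells. Prps2 was at 11.9 to 13.0 CPM against 20.6 to 30.1 CPM (-1.01, adjusted p = 2.86e-07), and Mthfd1l at 5.84 to 8.07 CPM against 14.3 to 14.6 CPM (-1.0, adjusted p = 1.74e-06), both also below mock M2-like cells. Umps remained above M1-like cells (0.44, adjusted p = 1.30e-05), as did Nme1 (0.65, adjusted p = 0.00014) and Atic (0.25). The calls of Prps1, Gmps, Rrm1 and Phgdh were lost without some library (Phgdh 1.62, adjusted p = 0.0368, and 1.20 without combined pool library 1).

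Of 25 DNA replication and division genes, 16 and 17 did not pass with the Myc and the combined pool. Against the negative pool, 0 were higher and 9 lower with the Myc pool (36%, all genes 29.6%, median -0.47), led by Ccna2 (-1.17), Top2a (-1.02), Aurkb (-0.76) and Pcna (-0.56), and 0 higher and 8 lower with the combined pool (32%, all genes 26.5%, median -0.38). Purine salvage gave 3 higher and 4 lower of 26 with the Myc pool, among them Gmpr (-1.03), Ak4 (-0.94) and Ampd3 (0.76). Pyrimidine salvage gave 4 higher and 2 lower of 20, with Tymp, which splits thymidine, at 0.96, and folate, glycine and methionine genes gave 4 higher and 3 lower of 22. Of the ATF4 response, 1 of 20 was higher, Slc3a2 (0.61), and 0 lower. With the E2f1 pool against the negative pool, 1 of 26 purine salvage genes was lower and 0 of 25 replication genes passed.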

How the data were processed

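RNA sequencing counts per Ensembl gene were used, 18 libraries of the polarization experiment and 36 of the reprogramming experiment. The authors deposited raw counts of reads per gene. The submitters' processing notes name Trimmomatic, TopHat2, featureCounts and the build mm10, with versions, annotation release and strand setting not given in the sources used here. Reads were single-end 50 nt in the polarization and paired-end 150 nt in the reprogramming experiment, so that reads shared by near-identical genes can be lost or split differently in each. Genes were named with the GRCm38 annotation (37693 of 39179 had a symbol). Near-identical copies were sought with BLAST+ 2.17.0 among annotated transcripts.

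The 2 runs of each mouse were summed. Replicates differed by more than counting noise (chi-square over degrees of freedom 3.64 to 52.1 between mice, 1.07 to 1.10 between runs and 4.48 to 23.0 between replicates of the reprogramming experiment). Counts were tested with edgeR 4.0.16 in R 4.3.3 (filterByExpr with a minimum count of 10 and a minimum total of 15, TMM, quasi-likelihood test, two-sided, Benjamini-Hochberg over all genes tested, threshold 0.05), 1 model for each experiment with the condition as the term, 16110 and 14172 genes and 26 comparisons in all. CPM used TMM library sizes, and levels per kilobase divided them by the length of all exons of a gene. Exact permutation tests used SciPy 1.17.1, and figures matplotlib 3.10.9. Counting precision follows the read numbers, which in the reprogramming experiment were low for Rrm2, Impdh2, Nme2 and Phgdh.

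On simulated counts for M1-like against M2-like cells at 24 h, edgeR recovered 100 of 100 genes changed by 1 on the log2 scale and 100 of 100 changed by 2 among 15940 genes, with 12 unchanged genes called. For mock M1-like against mock M2-like cells it recovered 95 of 100 and 100 of 100 among 13862 genes, with 14 unchanged genes called. The changed genes were drawn from those with a mean above 2 CPM, so recovery at lower levels was not tested. Far fewer genes were changed than were called in the real comparisons.

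The 33 members and the other gene lists were chosen with earlier results of these data known. In each comparison full values go to the 4 called members of each class with the largest absolute log2 fold change, and values to those against their class or not called, beside which members described in several comparisons were followed. Up to 4 genes of each other list may be named.

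Samples of the polarization experiment with 1 number came from 1 mouse, and their deviations from the condition means correlated by 0.02 to 0.48 (median 0.33) against a median of -0.17 for different mice. In the reprogramming experiment the number comes from the sample titles. There every same-numbered pair correlated by over 0.1 (0.12 to 0.67) in 11 of 22 comparisons, a judgement from these data and not from labels. The main model and the permutation tests used no pairing in either experiment. The replicate block was an alternative.

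Alternatives were DESeq2 1.42.0, RLE size factors, no filter on low counts, the replicate block, the compared groups alone, each compared replicate left out, a minimum fold change and levels over the longest transcript. Leaving out library 3 of the IL-4 groups, and the block in the 8 IL-4 groups alone, were added after seeing the data. Promoter windows are RefSeq GRCm38.p6 sequences.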

Additional observations from a re-analysis of the deposited data

Results flagged for a closer look

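For 6 members, the M1-like to M2-like differences had opposite signs in the polarization and the reprogramming experiment, with the samples of one experiment all on one side and those of the other all on the opposite side. The share of all genes with this pattern is not given here, so the count does not mark the members out. The difference between the experiments was not tested, and they differ in read type and, for mock cells, in time after the stimulus. The time of the untransfected groups is not named separately. Prps1 was at -1.78 at 24 h and 0.38 in mock cells. Pfas was at -1.07 at 24 h, 0.28 in mock and 0.21 in untransfected cells. Adsl was at -0.30 at 24 h and 0.25 in mock cells. Impdh2 was at -0.64 at 24 h and 1.06 in mock cells, with about 1 CPM in the reprogramming experiment. Dhodh was at -0.29 at 24 h, 0.68 in mock and 0.61 in untransfected cells. Mthfd2 was at -0.23 at 24 h and 0.55 in untransfected cells. The untransfected values of Pfas and Mthfd2 were not called. With a library left out, the mock calls of Prps1, Pfas, Adsl and Impdh2 stood in 4, 2, 1 and 4 of 6 cases, and that of Dhodh in all 6. At 24 h the calls of Dhodh and Mthfd2 stood in 4 of 6. For Mthfd2, library 3 of the IL-4 groups held 39.2% to 66.6% of the mean of the other libraries of its group.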

How the results depend on the processing

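Of 858 member results over 26 comparisons, 217 were called. Of these calls, 0 passed in the opposite direction under any alternative. Of the 858 results, 160 changed their side of the threshold under at least 1. Requiring an absolute log2 fold change of 1 lowered the members called at 24 h from 32 to 19 (M1-like against M2-like), 29 to 14 (M1-like against M0) and 18 to 1 (M2-like against M0). In untransfected cells the same counts went from 16 to 1, 14 to 2 and 4 to 0, and in mock cells from 14 to 2, 11 to 1 and 3 to 0. Mock against untransfected M0 cells went from 5 to 1 and the combined pool against mock M1-like cells from 15 to 3. It left 0 in the negative pool, combined, Myc, E2f1, Pparg and Stat6 pools against mock (3, 12, 10, 1, 4 and 3 before) and in the combined, Myc and Pparg pools against the negative pool (9, 12 and 2 before).

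Mock M2-like against mock M0 cells had 3 calls, 6 with no filter and 0 with the compared groups alone. The 5 calls without library 3 include Phgdh, Psat1 and Mthfd2. Those genes helped to single out that library, so that their calls without it have no test. The negative pool against mock had 5 by DESeq2 and 0 without library 3. The combined against the negative pool had 15 with the compared groups alone. Myc against the negative pool had 7 without library 3, of which that of Psat1 has no test. E2f1 against mock had 2 by DESeq2 and 3 with no filter, and against the negative pool 2 with the compared groups alone. Pparg against mock had 1 with no filter or the compared groups alone and 0 without library 3, and against the negative pool 1 with RLE factors or no filter and 0 without library 3. Stat6 against mock had 0 without library 3. The shares of all genes called without library 3 were 4.55% (mock M2-like against mock M0), 5.11% (negative pool against mock) and 16.2% (Myc against negative pool). They were 10.3% and 1.23% for Pparg against mock and the negative pool and 5.06% for Stat6 against mock. Shares of all genes with the fold threshold, DESeq2, RLE factors, no filter, the compared groups alone or 1 replicate left out are not given here. With 1 compared replicate left out, counts ran from 11 to 18 (M2-like against M0 at 24 h), 9 to 14 (mock M1-like against M2-like), 0 to 4 (mock M2-like against M0), 2 to 4 (mock against untransfected M0), 0 to 4 (negative pool against mock), 7 to 11 (Myc against negative pool), 0 to 1 (E2f1 against mock), 1 to 3 (Pparg against mock), 0 to 1 (Pparg against negative pool) and 1 to 3 (Stat6 against mock).

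With the replicate number as a block, counts went to 8 for mock against untransfected M0 (all genes 24.5%). They went to 5 for mock M2-like against M0 (all genes 6.35%) and 6 for the negative pool against mock (all genes 14.8%). In these comparisons the libraries share only a number. The count for E2f1 against the negative pool went to 1 (all genes 1.67%). With the block in the 8 IL-4 groups alone, counts were 15 (combined against negative pool, all genes 35.6%), 16 (Myc against mock, all genes 46.5%) and 10 (negative pool against mock, all genes 19.0%). They were 5 for E2f1 against mock (all genes 18.9%), 2 for E2f1 and for Stat6 against the negative pool (all genes 3.71% and 4.9%) and 5 for Pparg against the negative pool (all genes 13%). That block was added after the pattern of library 3 was seen. Shmt2, Mthfd2 and Phgdh are among the calls of the negative pool and of E2f1 against mock. Mthfd2 and Psat1 make up both Stat6 calls and are among those of Myc against mock. Phgdh is among those of the combined and Pparg pools, with Psat1 and Mthfd2 respectively. Those genes singled out library 3, so that their calls here have no test. Per kilobase of the longest transcript, the median level of the members was 5.86 (M0), 3.87 (M1-like) and 8.16 CPM (M2-like at 24 h), against 4.51, 2.67 and 7.05 over all exons. The causes of these changes were not tested. Depth limits Rrm2, Impdh2, Nme2 and Phgdh in the reprogramming experiment.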
